A study of Arabidopsis thaliana with 16 samples.

Results

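The mitochondrial genome features of the table were the 162 features whose chromosome is given as M and whose identifiers start with ATMG, out of 65386 features in all. Small RNA had been isolated by RNA immunoprecipitation (IP) through green fluorescent protein (GFP) and sequenced from Arabidopsis thaliana, a plant of the mustard family. There were 8 groups of 2 libraries each, 16 libraries in all. All plants were in the Col-0 background. The AGO5 IP came from plants with pAGO5::GFP-AGO5. The AGO9 IP came from plants with pAGO5::GFP-AGO9, so AGO9 was driven by the AGO5 promoter and not by its own. The GFP-only IP came from plants with p35S::GFP, which is GFP without an Argonaute under a viral promoter. Input RNA was taken from the AGO5 line as replicate 1 and from the AGO9 line as replicate 2. Each of the 4 kinds of library was made at 7 days, from shoot apices, and at 35 days, from inflorescence and floral meristems with young flower buds, so age and tissue changed together. Nothing in the labels says whether replicates came from separate plantings, so p-values measure the spread between these libraries, which may be technical. For the inputs that spread also holds any difference between the AGO5 and AGO9 lines.

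Argonaute proteins hold small RNAs and use them to find matching transcripts or DNA. AGO9 is known in Arabidopsis for binding mainly 24 nt small RNAs, and AGO5 for binding RNAs that start with a cytosine. The mitochondrial genome encodes a few subunits of the respiratory chain and of ATP synthase, proteins of cytochrome c maturation, ribosomal proteins, rRNAs, tRNAs and many open reading frames of unknown function. A large insertion of mitochondrial DNA lies in nuclear chromosome 2, so many small RNAs of mitochondrial sequence have a nuclear match as well.

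By class, the 162 features were 78 open reading frames, 26 tRNA genes, 14 genes or gene segments of complex I (NADH dehydrogenase), 7 ribosomal protein genes, 6 ATP synthase genes, 5 genes of cytochrome c maturation, 3 rRNA genes, 3 genes of complex IV (cytochrome c oxidase), 1 gene of complex III, the pair matR and mttB, and 17 features without a name. Names were found for 145 of the 162. Of all 21-base words of the mitochondrial sequence in the reference (TAIR10.1), 72.4% also occurred in chromosome 2. Reads of such words cannot be told apart by origin, and how the authors placed them is not given in the sources used here.

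RefSeq annotates 254 clustered organellar small RNAs (cosRNAs) on the mitochondrial sequence of TAIR10.1, short footprints that are thought to be left where RNA-binding proteins protect transcripts. Of these, 83 are 24 nt long. The 11 cosRNAs of 24 nt within nad7, nad2 part 2, nad1 part 3 and the rRNA genes rrn26 and rrn18 are printed below. The 5′ base, which Argonautes are known to select on, is in capitals. The table counts reads per feature and gives no read position, so it was not tested whether the reads were these RNAs. Positions are those of the TAIR10.1 mitochondrial sequence, which differs from the version the table's own positions refer to.
M167 in nad7, 239667 to 239690, minus strand: Tctgaacgaattagatccttggta
M168 in nad7, 239944 to 239967, minus strand: Gttggcttaacgagcgcagatgtg
M42 in nad7, 241026 to 241049, plus strand: Aagccacttacttgatgtctagct
M202 in nad2 part 2, 93683 to 93706, plus strand: Gataaggaataaggattgaagccc
M201 in nad2 part 2, 97311 to 97334, plus strand: Acggtactaaaggtcctcggactt
M163 in nad1 part 3, 230770 to 230793, minus strand: Tccatccctgaatgtcgtcgggta
M164 in nad1 part 3, 232025 to 232048, minus strand: Gagaagctctacggcacccacgat
M95 in nad1 part 3, 232490 to 232513, plus strand: Cggagcaacgcgtcatcggacgtt
M165 in nad1 part 3, 232958 to 232981, minus strand: Ggggaactctgcaaggatcttgcc
M120 in rrn26, 141141 to 141164, plus strand: Accccaggatgtgatgagtcgaca
M198 in rrn18, 128003 to 128026, plus strand: Aggatttggcccgaactgttcggc
Strands too are those of the TAIR10.1 sequence, on which nad7 lies on the minus strand, opposite to its strand in the table. M167 and M168 therefore lie on the strand of nad7 itself, while M42, M201, M202, M120 and M198 lie opposite to their genes. RefSeq gives no strand for nad1 part 3, but in the table it lies on the same strand as matR, which is annotated inside it. On TAIR10.1 matR lies on the plus strand, the strand of M95, while M163, M164 and M165 lie opposite. M95, M164 and M165 lie within matR, which had no read in any library, so the count of nad1 part 3 may leave them out. The 5′ bases of the printed RNAs were mixed. Over the 24 cosRNAs of 24 nt in features that could be matched, the 5′ base was A in 8, G in 7, T in 7 and C in 2.

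Mitochondrial features took a small part of every library. Values were RPM (reads of a feature scaled to 1000000 read assignments in the library) as deposited by the authors, summed over the 21, 22, 23 and 24 nt columns, and whole reads were recovered from them. The 16 libraries held 3578524 to 99594348 read assignments, and 3 reads corresponded to 0.0301 to 0.838 RPM. Of the 162 features, 156 had a read in at least 1 library, 87 had a mean of at least 1 RPM and were tested, 19 had a mean of at least 10 RPM, and 75 were below 1 RPM. The 6 features without a read were matR, ORF131, ORF107H, trnD(GTC), ATMG09390 and ATMG09800, and all 6 overlapped another mitochondrial feature. matR, the maturase gene, is annotated inside nad1 part 3. The counts do not show whether reads within matR, if any, went to nad1 part 3 or to neither feature. The GFP-only libraries at day 35 were the shallowest and had reads on only 31 and 23 mitochondrial features, against 91 to 156 in the others.

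At day 7, mitochondrial reads made up 0.271% and 0.250% of the inputs, 0.204% and 0.144% of the AGO5 IP, 0.159% and 0.112% of the AGO9 IP, and 0.640% and 0.264% of the GFP-only IP. Both Argonaute IPs lay below both inputs, and GFP-only replicate 2 lay between the 2 inputs while replicate 1 lay above both. The mean share was 0.174% ± 0.0425 (SD, n = 2) for AGO5 and 0.136% ± 0.0337 for AGO9 against 0.261% ± 0.0150 for input. At day 35 the shares were 0.113% and 0.0821% in the inputs, 0.0829% and 0.154% with AGO5, 0.0195% and 0.0645% with AGO9, and 0.148% and 0.295% in the GFP-only IP. There AGO9 lay below and the GFP-only IP above both inputs, and AGO5 overlapped them. The 95% Wilson intervals of single libraries were narrow (0.0187% to 0.0203% for the lowest library), so the spread between replicates, not counting error, set the precision. In an exact two-sided permutation test of 2 libraries against 2, the groups that did not overlap had p = 0.333, the smallest this design allows. RPM are relative to each library, so less mitochondrial RNA and more of other RNA cannot be told apart. Plastid features, the other organellar genome, took 5.43% and 4.93% of the day 7 inputs, 0.425% to 3.11% of the Argonaute IPs of that age and 29.3% and 6.54% of the GFP-only IP. The day 35 plastid shares were 0.623% and 0.226% in the inputs, 0.719% and 1.78% with AGO5, 0.0239% and 0.629% with AGO9 and 2.04% and 3.71% in the GFP-only IP. The GFP-only IP of both ages and AGO5 at day 35 thus lay above both inputs.

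**Figure D1:**
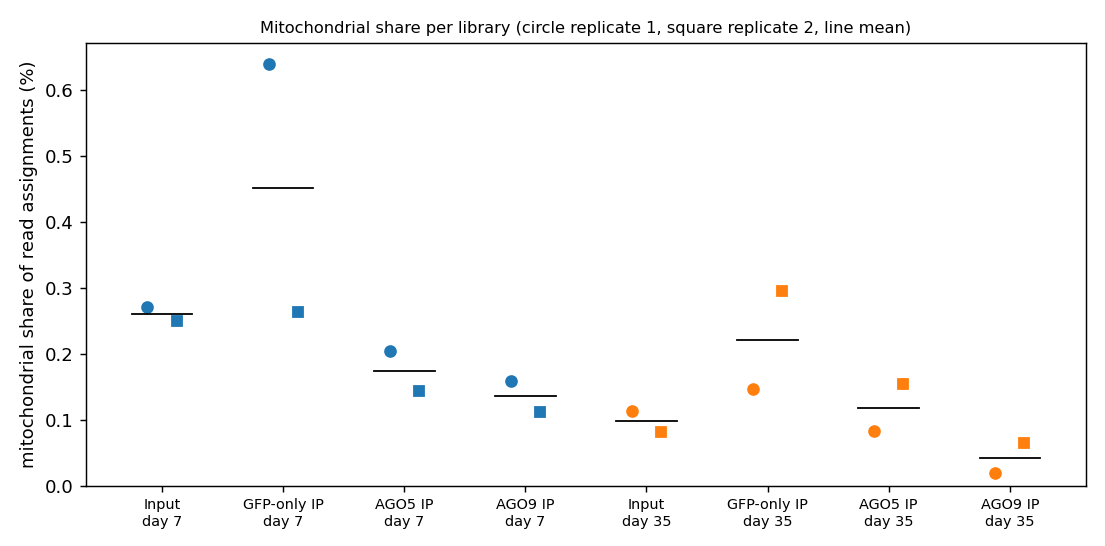
Share of read assignments on the 162 mitochondrial features (vertical axis, percent) in each library, by group. Circles are replicate 1, squares replicate 2 and lines group means. At day 7 both Argonaute IPs lie below both inputs, and the widest gap between replicates is in the day 7 GFP-only IP (0.640% and 0.264%).

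Mitochondrial reads of 24 nt took a larger share in the AGO9 IP than in the inputs. At day 7, 24 nt reads made up 21.9% of the mitochondrial reads in both inputs, 53.4% and 79.5% in the AGO9 IP, 30.8% and 47.1% in the AGO5 IP, and 24.1% and 24.5% in the GFP-only IP. AGO9 lay above AGO5 and AGO5 above the inputs, with no overlap between the groups. At day 35 the 24 nt share was 21.2% and 24.9% in the inputs, 82.2% and 32.3% in the AGO9 IP, 29.6% and 25.4% in the AGO5 IP, and 21.9% and 24.7% in the GFP-only IP. The AGO9 replicates were far apart there, and without AGO9 replicate 1 the difference from input was 9.27 percentage points in place of 34.2. AGO5 minus input was 17.1 percentage points at day 7 and 4.44 at day 35. With a plain mean over features in place of the sum of reads the AGO5 difference at day 35 was -6.53, the opposite direction. The exact permutation p was 0.333 for each pair of groups that did not overlap. Another size moved with the AGO5 IP: 22 nt reads made up 27.6% and 32.8% at day 7 and 28.4% and 38.0% at day 35, above the 25.2% to 25.9% of all 4 inputs, while the GFP-only IP was also at 26.8% to 37.9%.

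A shift to 24 nt in the AGO9 IP was also seen over the whole table, from a higher share in the inputs. Over all features, 24 nt reads made up 35.7% and 37.1% of the day 7 inputs and 76.4% and 89.8% of the day 7 AGO9 IP. Plastid features gave 19.9% and 19.5% in the same inputs and only 24.8% and 26.9% in the same AGO9 IP. In each of the 4 AGO9 libraries the mitochondrial 24 nt share lay between the plastid share and that of the whole table. Feature by feature, 79 of the 87 tested mitochondrial features (90.8%) had a higher 24 nt share in both day 7 AGO9 libraries than in both inputs, against 89.3% of all features with reads in those libraries. For day 35 the count was 39 of 64 (60.9%), against 63.2%. Both counts were near the background.

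**Figure D2:**
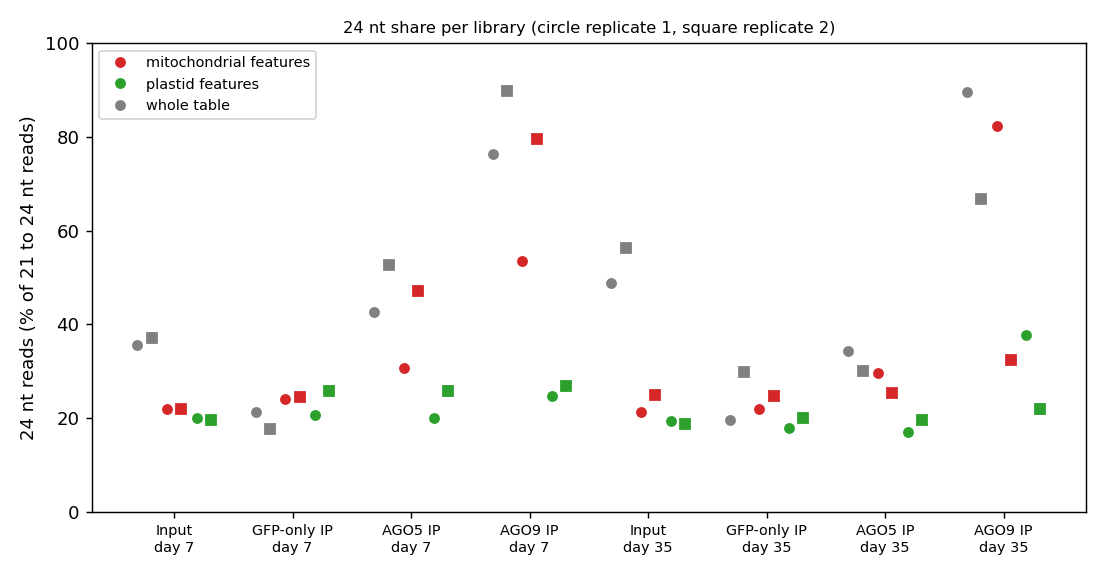
Reads of 24 nt as a percentage of the 21 to 24 nt reads (vertical axis) in each library, for mitochondrial features (red), plastid features (green) and the whole table (grey). Circles are replicate 1 and squares replicate 2. In the AGO9 IP the mitochondrial points lie between the plastid points and those of the whole table.

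The 4 features with the highest means held a smaller part of the mitochondrial reads in the day 7 AGO9 IP than in the inputs. atp8 (ATP synthase subunit 8), nad5 part 1, nad1 part 3 and nad4 (subunits of complex I, the first 2 as segments of genes whose transcripts are joined by trans-splicing) held 71.7% and 69.8% of the mitochondrial reads of the day 7 inputs but 35.6% and 20.9% of the day 7 AGO9 IP. Their 24 nt share in the day 7 AGO9 IP was 28.8% and 36.6%. The remaining features had 67.1% and 90.8%, against 32.2% and 33.0% in the inputs. The total of the remaining features was 768 and 754 RPM in the day 7 inputs, 1029 and 1164 with AGO5, and 1026 and 885 with AGO9. The GFP-only IP was at 920 and 1259 RPM, so all 6 IP libraries lay above both inputs. The day 35 totals differed from this, at 460 and 353 RPM in the inputs, 409 and 312 with AGO5, 180 and 241 with AGO9 and 410 and 369 in the GFP-only IP. There AGO9 lay below both inputs, and the 4 features held 59.3% and 57.0% of the mitochondrial reads of the inputs and 7.53% and 62.7% of the AGO9 IP.

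Among ATP synthase genes, atp8 (ATMG00480, positions 129909 to 130385 of chromosome M, plus strand) had the highest mean of all mitochondrial features, 533 RPM, and per length the highest too, 1118 RPM per kb against 150 for the next, ORF122A. It was at 540 and 438 RPM in the day 7 inputs, 369 and 49.6 in AGO5, 304 and 101 in AGO9, and 3411 and 814 in the GFP-only IP. The day 35 inputs were at 45.7 and 10.02 RPM, with 127 and 522 in AGO5, 2.66 and 133 in AGO9 and 361 and 1303 in the GFP-only IP. At day 7 both GFP-only libraries lay above the other 6, while at day 35 AGO5 replicate 2 lay between them, and the replicates of each of these groups differed several-fold. Against input on the log2(RPM + 1) scale, the GFP-only IP was 4.92 ± 1.52 (SE) higher at day 35 (limma adjusted p = 0.0205, n = 2 per group), a call lost without the filter on low values, without input replicate 2 and without GFP-only replicate 2. No call was made for atp8 in either Argonaute IP against input with all sizes summed. In 24 nt reads alone, AGO5 at day 35 was 4.62 ± 1.53 higher than input (adjusted p = 0.0369). All 21-base words of atp8 in the TAIR10.1 mitochondrial sequence occur in chromosome 2, where its annotated copy AT2G07707 had a mean of 3.06 RPM.

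Complex I holds 14 members, of which 11 were tested. Its summed level in the inputs was 1505 RPM ± 63.5 (SD, n = 2) at day 7 and 620 ± 132 at day 35. nad5 part 1 (ATMG00513, 140724 to 142998, minus strand) was at 536 and 454 RPM in the day 7 inputs, 87.3 and 48.6 in AGO9, and 288 and 135 in AGO5. The day 35 inputs held 349 and 289 RPM and the AGO9 IP 3.09 and 60.2, and nad5 part 1 was 4.33 ± 0.95 lower in AGO9 on the log2 scale (adjusted p = 0.0133). Both AGO9 libraries of each age lay below both inputs. The call was lost with median centring, with edgeR and without AGO9 replicate 1 or either input. Against the GFP-only IP at day 35, which was at 333 and 487 RPM, the difference of -4.67 ± 0.95 kept its call under all 9 alternatives, which were 5 other settings of the fit and leaving out each of the 4 libraries (adjusted p = 0.002, with values up to 0.0157).

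nad4 (ATMG00580, 161693 to 169674, plus strand) was at 614 and 627 RPM in the day 7 inputs, 592 and 272 in the GFP-only IP, 191 and 43.1 in AGO5 and 104 and 51.4 in AGO9. Both Argonaute IPs lay below all 4 other libraries of that age. AGO9 was 3.06 ± 0.93 lower than input (adjusted p = 0.0304), while the AGO5 difference of -2.76 ± 0.93 did not pass (adjusted p = 0.0603). The inputs themselves fell between ages, to 85.1 and 22.1 RPM at day 35, by 3.80 ± 0.93 on the log2 scale (adjusted p = 0.0207). The AGO9 call was lost in each fit without 1 of its libraries, and the call between ages without either day 7 input or day 35 input replicate 2. nad1 part 3 (ATMG00516, 143219 to 147048, minus strand) varied widely between replicates: 865 and 94.7 RPM in the day 7 GFP-only IP, 4.03 and 201 in the day 35 AGO9 IP. No call was made for it against input.

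nad2 part 2 at day 7 and nad7 at both ages had higher values in the Argonaute IPs than in the other libraries. nad2 part 2 (ATMG01320, 327890 to 333105, minus strand), where M201 and M202 lie, was at 91.1 and 95.4 RPM in the day 7 inputs, 107 and 83.5 in the GFP-only IP, 168 and 294 in AGO5 and 159 and 189 in AGO9. Both Argonaute IPs lay above all 4 other libraries. Its 24 nt reads were at 32.0 and 37.0 RPM in the inputs, 28.3 and 21.4 in the GFP-only IP, 78.9 and 164 in AGO5 and 132 and 180 in AGO9. Its reads of 21 to 23 nt together also lay above the inputs and the GFP-only IP in AGO5, and below them in AGO9. In 24 nt reads the difference from input was 1.70 ± 0.39 for AGO5 (adjusted p = 0.0225) and 2.13 ± 0.39 for AGO9 (adjusted p = 0.00202), and with all sizes summed neither passed (adjusted p = 0.0647 and 0.146). At day 35 its 24 nt level was 18.6 and 16.3 RPM in the inputs, 20.6 and 18.7 in AGO5 and 25.7 and 19.0 in AGO9, and no call was made.

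nad7 (ATMG00510, 132071 to 138153, plus strand), where M167, M168 and M42 lie, was at 3.69 and 4.69 RPM in the day 7 inputs, 0.941 and 2.244 in the GFP-only IP, 8.91 and 16.7 in AGO5 and 17.1 and 22.2 in AGO9. The day 35 levels were 8.13 and 13.8 RPM in the inputs, 9.501 and 14.7 in the GFP-only IP, 51.6 and 29.6 in AGO5 and 85.5 and 90.2 in AGO9. At both ages all 4 Argonaute libraries lay above all 4 of the others. AGO9 was 2.93 ± 0.46 higher than input at day 35 (adjusted p = 0.00236), the only mitochondrial feature called higher in that comparison, and this call held under all 9 alternatives. The other calls were AGO9 against input at day 7 (1.99 ± 0.46, adjusted p = 0.0101) and AGO5 against input at day 35 (1.79 ± 0.46, adjusted p = 0.0136), and each was lost with median centring. The first was also lost with edgeR and without AGO9 replicate 2 or either input, and the second without AGO5 replicate 1 or input replicate 1. AGO5 against input at day 7 did not pass (1.36 ± 0.46, adjusted p = 0.0615). Against the GFP-only IP, AGO9 was 3.03 ± 0.46 higher at day 7 (adjusted p = 0.000252) and 2.79 ± 0.46 at day 35 (adjusted p = 0.000616), and both calls were lost with median centring, the first also with edgeR. AGO5 and AGO9 were not called different at either age (adjusted p = 0.349 and 0.0915). The sizes differed between the day 35 AGO9 replicates: 24 nt reads were 70.7 of 85.5 RPM in replicate 1 and 27.7 of 90.2 RPM in replicate 2.

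In complex III, cob (cytochrome b, ATMG00220) was at 7.57 and 7.04 RPM in the day 7 inputs, 12.8 and 18.5 in AGO5, 16.9 and 19.3 in AGO9, and 4.92 and 1.77 in the GFP-only IP. Its 24 nt reads were 2.2204 ± 0.39 higher in AGO9 than in input (adjusted p = 0.00167). In complex IV, ATMG00730, named through its chromosome 2 copy as cytochrome c oxidase subunit 3, was at 6.21 and 4.76 RPM in the day 7 inputs and 47.6 and 230 in the GFP-only IP, 4.04 ± 0.97 higher (adjusted p = 0.0135), a call lost with median centring, with edgeR and without either input or GFP-only replicate 2. Its level in the day 7 Argonaute IPs was 29.5 and 8.03 RPM for AGO5 and 78.2 and 9.36 for AGO9, so replicate 1 was the higher in both. cox2 (cytochrome c oxidase subunit 2, ATMG00160) was at 46.6 and 43.3 RPM in the day 35 inputs, 8.66 and 4.36 in AGO5, and 1.11 and 1.12 in AGO9. AGO9 was 4.44 ± 0.84 lower (adjusted p = 0.0067) and AGO5 2.67 ± 0.84 lower (adjusted p = 0.0333), and both calls were lost with a pseudocount of 0.1 RPM, with edgeR and without input replicate 1, the AGO5 call under each alternative but the replicate block.

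Of the cytochrome c maturation genes, ccmFC (ATMG00180), which acts in heme attachment, was at 6.34 and 5.31 RPM in the day 7 inputs, 13.4 and 18.9 in AGO5, and 25.1 and 25.1 in AGO9. In AGO9, 23.7 and 24.1 RPM of it was 24 nt. It was 1.94 ± 0.49 higher in AGO9 than in input (adjusted p = 0.0141), a call lost with median centring, with edgeR and in every fit without 1 library. mttB, a membrane transport gene, was at 9.25 and 7.67 RPM in the day 35 AGO5 IP, at 1.10 and 1.59 in the inputs, at 0.686 and no read in AGO9, and without a read in either GFP-only library, where 3 reads would be 0.838 and 0.721 RPM. AGO5 was 2.01 ± 0.37 higher than input (adjusted p = 0.00212) and 2.86 ± 0.37 higher than AGO9 (adjusted p = 0.000416), and the second call held under all 9 alternatives, while the first was lost with the pseudocount of 0.1 RPM, with median centring and with edgeR.

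Of the rRNA genes, only rrn18 was among the 12 mitochondrial features with the highest means. rrn18 (ATMG01390), the small subunit rRNA gene, was at 33.1 and 33.4 RPM in the day 7 inputs, 42.7 and 25.7 in AGO5, 25.2 and 17.3 in AGO9 and 40.0 and 17.9 in the GFP-only IP, so AGO9 lay below both inputs and both AGO5 libraries, and the other pairs of groups overlapped. At day 35 it was at 19.8 and 7.91 RPM in the inputs, 24.6 and 29.8 in the GFP-only IP and 0.858 and 3.11 in AGO9, where it was 2.298 ± 0.55 below input (adjusted p = 0.0204) and 3.35 ± 0.55 below the GFP-only IP (adjusted p = 0.000596). The second call held under all 9 alternatives, and the first was lost with median centring, with edgeR and without AGO9 replicate 1 or input replicate 1. rrn26 (ATMG00020), the large subunit rRNA gene, was at 5.24 and 4.76 RPM in the day 7 inputs and 7.95 and 8.60 in AGO9, and its 24 nt reads were 1.88 ± 0.44 higher in AGO9 (adjusted p = 0.00582), at 6.41 and 8.08 RPM against 1.10 and 1.38. rrn5 had a mean of 0.309 RPM and was not tested. rps3, the ribosomal protein gene with the highest mean, was at 22.3 RPM in both day 7 inputs and 29.3 and 9.36 in AGO5, and had no call with all sizes summed. tRNAI(CAT), an isoleucine tRNA gene, was at 23.2 and 20.1 RPM in the day 7 inputs and 5.18 and 2.86 in AGO5, 1.505 and 1.54 in AGO9 and 6.15 and 5.05 in the GFP-only IP. All 3 kinds of IP lay below both inputs, with AGO9 3.16 ± 0.46 lower (adjusted p = 0.00352), a call lost with edgeR and without input replicate 1. At day 35 it was at 11.9 and 8.65 RPM in the inputs and had no read in either AGO9 library, where 3 reads would be 0.257 and 0.373 RPM.

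The open reading frames held 45 tested members of 78. ORF107G (ATMG01060) was at 129 and 140 RPM in the day 7 inputs and between 7.68 and 20.5 in all 6 IP libraries of that age. It was 3.05 ± 0.64 lower in AGO5, 3.65 ± 0.64 in AGO9 and 3.79 ± 0.64 in the GFP-only IP (adjusted p = 0.0112, 0.00437 and 0.00337), and all 6 IP libraries lay below both inputs. The AGO5 call was lost with median centring and without AGO5 replicate 2 or either input, the AGO9 call without input replicate 1, and the GFP-only call with median centring, with edgeR and without input replicate 2. ORF122A (ATMG00470) was at 110 and 84.4 RPM in the day 7 inputs, 20.1 and 13.3 in AGO9 and 99.5 and 56.4 in AGO5. At day 35 it was at 46.2 and 46.5 RPM in the inputs, 0.343 and 4.85 in AGO9, 19.9 and 15.3 in AGO5 and 101 and 57.5 in the GFP-only IP. AGO9 was lower than input there by 4.08 ± 0.63 (adjusted p = 0.00204), lower than the GFP-only IP by 4.78 ± 0.63 (adjusted p = 0.000127), and lower than AGO5 by 2.72 ± 0.63 (adjusted p = 0.00802). The first 2 of these held under all 9 alternatives, and the last was lost without AGO5 replicate 1 or AGO9 replicate 1. ORF159 (ATMG01050) was at 9.25 and 10.5 RPM in the day 7 inputs, 5.94 and 3.84 in the GFP-only IP, 24.5 and 55.3 in AGO5 and 34.4 and 43.7 in AGO9. In AGO9 its 24 nt reads were 2.37 ± 0.76 above input (adjusted p = 0.0255). ORF315 (ATMG00040) stood out in 1 library, with 433 RPM in the day 7 GFP-only IP replicate 2, 64.5 in replicate 1 and 2.65 and 3.79 in the inputs, a difference of 5.33 ± 1.25 (adjusted p = 0.0124). That call was lost with median centring, with edgeR and without either input or GFP-only replicate 2. It also differed between the replicates of the Argonaute IPs at that age, 53.2 and 4.03 RPM in AGO5 and 60.4 and 3.76 in AGO9. ORF106E (ATMG01030) was at 46.1 and 67.5 RPM in the day 35 GFP-only IP and 0.600 and 2.61 in AGO9, a difference of -4.56 ± 0.86 (adjusted p = 0.00133) that held under all 9 alternatives. ORF116 was among the 4 features called higher in the day 35 AGO5 IP than in input (2.73 ± 0.84, adjusted p = 0.0304), and is named here after its values were seen.

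**Figure D3:**
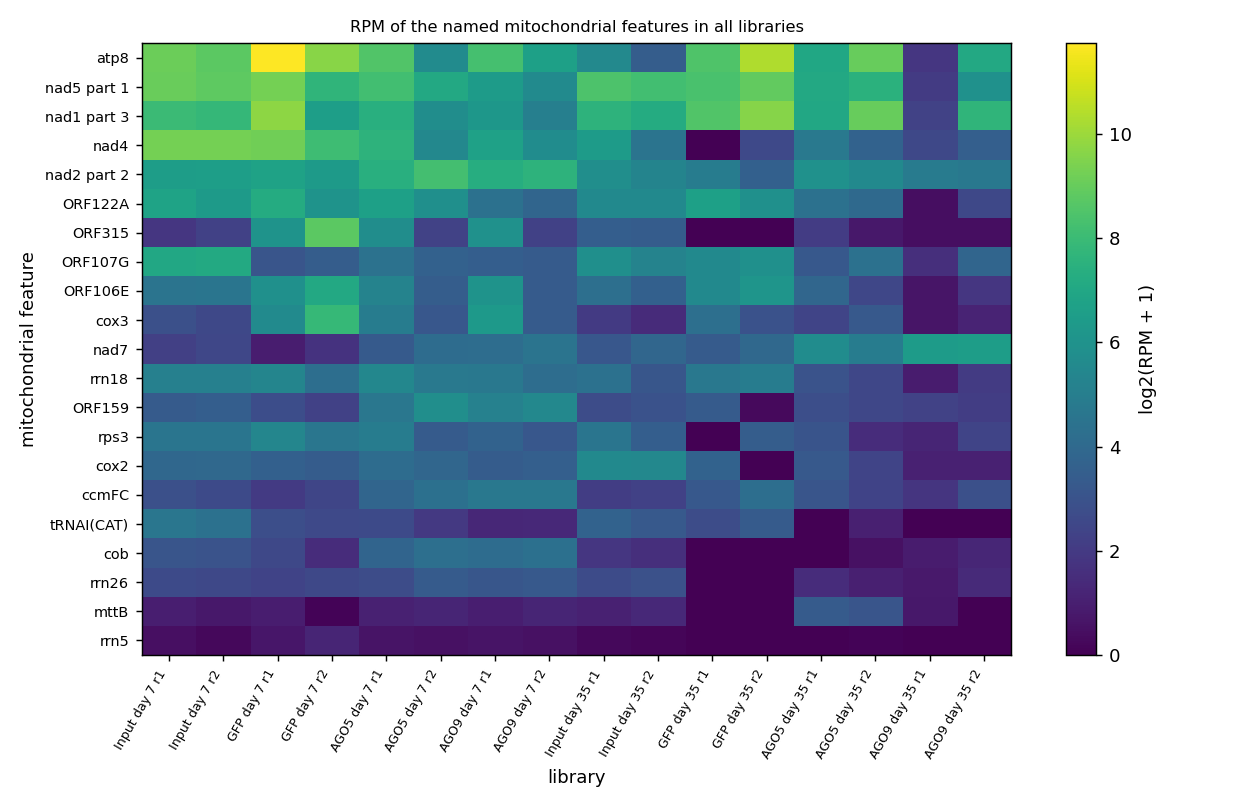
log2(RPM + 1) (colour) of the 21 named mitochondrial features (rows, in order of mean) in the 16 libraries (columns, r1 and r2 are replicates 1 and 2). cox3 is ATMG00730. atp8 is highest in day 7 GFP-only replicate 1 (3411 RPM), and nad7 is highest in the day 35 AGO9 IP.

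Counted over all 87 tested features with both directions together, calls were close to or below the background of the whole table in most comparisons. By direction, some counts lay above the background and others below it. At day 7, 14 of the 87 were higher in AGO5 than in input, against 7.73% of all features. For the GFP-only IP 5 of the 87 were higher, against 0.182%. The test was limma's on log2(RPM + 1), with Benjamini-Hochberg adjustment over all 17020 tested features at 0.05. Against input at day 7, AGO5 had 14 features higher and 3 lower (19.5% called), against 7.73% and 10.4% of all features (18.2% called), and the median log2 difference was 0.81 against -0.30. AGO9 had 12 higher and 6 lower (20.7% called), against 17.6% and 9.48% of all (27% called), with medians of 1.07 and 0.65. The GFP-only IP had 5 higher and 4 lower, against 0.182% and 26% of all (26.2% called), with medians of -0.32 and -1.03. At day 35, AGO5 had 4 higher and 7 lower, against 3.84% and 24.2% of all (28% called). AGO9 had 1 higher and 8 lower, against 3.59% and 6.26% (9.85% called), and the GFP-only IP 2 higher and 21 lower, against 1.1% and 44.5% (45.6% called). The day 35 medians were 0.02 and -0.65 for AGO5, -0.38 and -0.30 for AGO9, and -0.64 and -1.27 for the GFP-only IP, mitochondrial first.

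Against the GFP-only IP at day 7, AGO5 had 22 higher and 0 lower, against 24.5% and 1.39% of all features (25.9% called), and AGO9 had 26 higher and 7 lower, against 60.2% and 4.92% (65.1% called). At day 35, AGO5 had 17 higher and 5 lower, against 24.5% and 5.26% (29.8% called), and AGO9 had 6 higher and 10 lower, against 38.5% and 6.5% (45% called). AGO5 against AGO9 gave 1 higher, ORF122A, and 1 lower, ORF100B, at day 7, against 3.44% and 21.5% (25% called). At day 35 it gave 10 higher and 0 lower, against 7.06% and 18.6% (25.7% called). The inputs at day 35 against day 7 gave 0 higher and 3 lower (nad4, rpl5 and ORF100B), against 11.2% and 5.44% of all features (16.6% called). In that last comparison 78 of the 87 features had a negative log2 difference, and the median was -0.68 against 0.48 for all features. The plastid share of the inputs was also lower at day 35 than at day 7. Comparisons that share control libraries are not independent of each other. The counts depended on single libraries: AGO5 minus input at day 7 gave 0 calls without AGO5 replicate 2 or without either input, and AGO9 minus input at day 7 gave 0 calls without input replicate 1, 2 without input replicate 2 or AGO9 replicate 2, and 9 without AGO9 replicate 1. Centring each library on the median of all features shifts every difference of a comparison by the same amount. On the log2 scale the shift against input was 0.34 for AGO5, -0.54 for AGO9 and 1.12 for the GFP-only IP at day 7, and 0.71, 0.28 and 2.03 at day 35. After centring, AGO5 had 0 calls and AGO9 4 against input at day 7.

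Between the ages, the change of a difference was tested in the same fit, a test chosen after seeing the data. Of the 87 features, 0 were called for either Argonaute IP minus input with limma, against 0.488% of all features for AGO5 and 1.91% for AGO9. At an unadjusted p under 0.05 there were 18 for AGO5 and 29 for AGO9. The share of all features at that threshold was not computed, so these 2 counts have no background. For the GFP-only IP minus input 5 were called, against 2.1% of all. For AGO5 and AGO9 minus the GFP-only IP 4 and 8 were called, against 10.6% and 18.7%, and for AGO5 minus AGO9 2 were called, against 1.26%.

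Split by size, the AGO9 IP at day 7 was higher than input in 24 nt reads for 52 of the 87 features and lower for 4, with a median of 1.36 against 1.06 over all features. The background was 39.4% of all features higher and 6.28% lower (45.7% called). In the reads of 21 to 23 nt, 0 features were higher and 9 lower, against 0.00588% and 10.5% of all features (10.5% called). By class, the 24 nt reads were higher in AGO9 for 30 of 45 open reading frames, 6 of 11 complex I features, 3 of 4 cytochrome c maturation genes, 3 of 6 ribosomal protein genes, 2 of 3 complex IV genes, 2 of 4 ATP synthase genes, 2 of 5 tRNA genes, 1 of 2 rRNA genes, cob, and 2 of 5 unnamed features. The 24 nt reads lower in AGO9 were those of nad5 part 1, nad4, ORF107G and tRNAI(CAT). AGO5 at day 7 had 14 features higher and 3 lower in 24 nt reads, against 5.23% and 6.13% of all (11.4% called). At day 35 the AGO9 IP had 1 higher, ccmB, and 5 lower in 24 nt reads, against 4.39% and 1.73% of all (6.12% called).

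**Figure D4:**
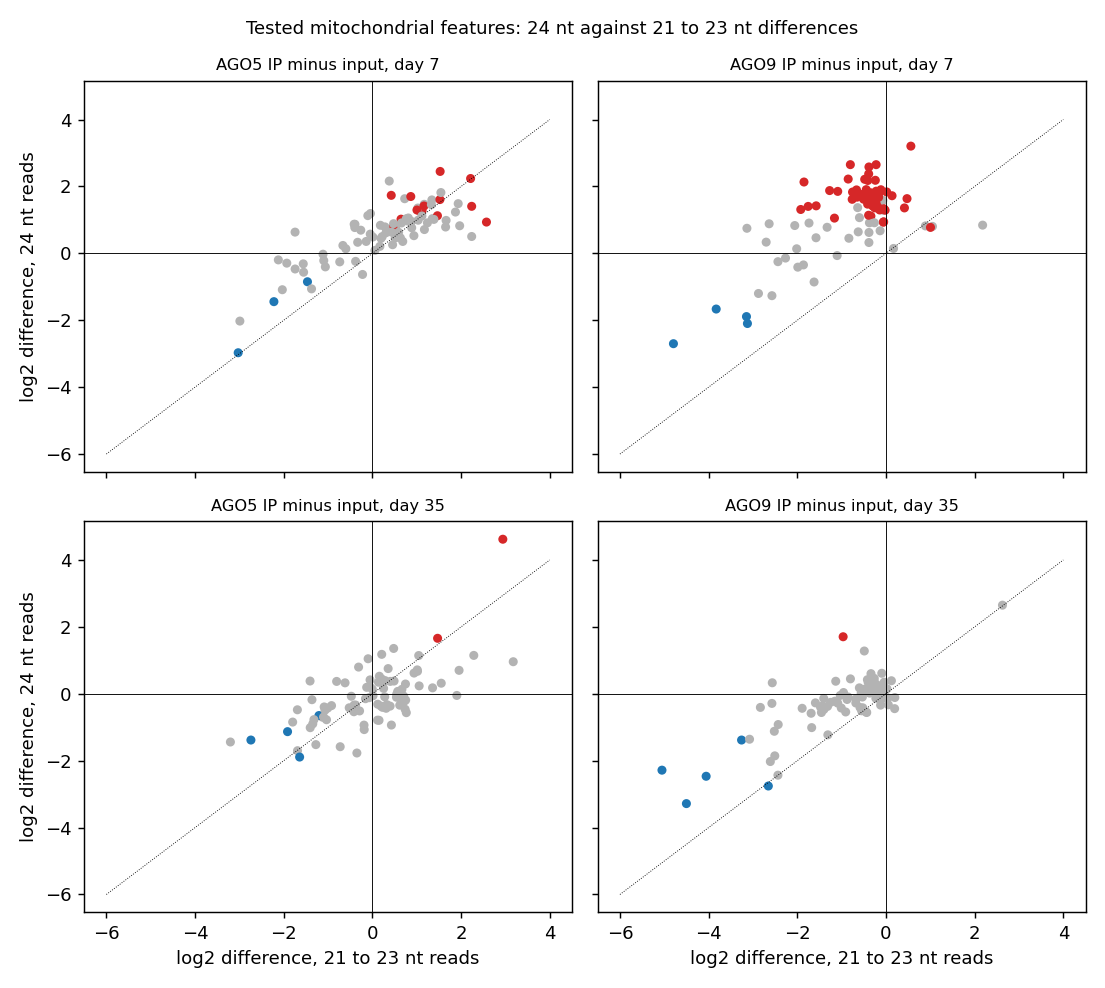
log2 difference from input in 24 nt reads (vertical) against that in 21 to 23 nt reads (horizontal) for the 87 tested mitochondrial features, for AGO5 and AGO9 at both ages. Red points were higher and blue points lower in 24 nt reads at an adjusted p under 0.05, grey points did not pass, and the dotted line marks equal differences. At day 7 most AGO9 points lie above the line, and 52 are red.

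The shift at day 7 was seen in features with few and with most of their 21-base words in chromosome 2. The words were those of the matched genes in TAIR10.1, whose mitochondrial sequence is another version than the table's. A low share in chromosome 2 therefore does not show that a feature has no nuclear copy, and the origin of the reads was not tested. For the 29 members with at most 10% of their 21-base words in chromosome 2, the 24 nt share was 26.5% and 28.2% in the inputs and 57.4% and 86.3% in the AGO9 IP. For the 102 members with at least 90% it was 21.4% and 21.3% in the inputs and 53.4% and 77.9% in the AGO9 IP. In 24 nt reads AGO9 was called higher for 10 of the 19 tested members of the first kind and 37 of the 56 of the second. Over all features of the table, 39.4% were called higher in that fit. The 8 members with 10 to 90% had a 24 nt share of 25.8% and 24.9% in the day 7 inputs and 19.8% and 73.7% in the AGO9 IP. AGO9 replicate 1 thus lay below both inputs there, and 0 of the 4 tested members were called higher. The words of 23 members were not measured. The 55 chromosome 2 genes annotated as copies of a mitochondrial gene were compared with their partners in RPM, not scaled for length. Of the 33 pairs with a mitochondrial mean of at least 1 RPM, the copy had the higher mean in 20 and the mitochondrial feature in 13. Some copies are annotated over longer stretches than their partners, so these means do not compare like sequence. One such pair, named after its values were seen, was ORF122A, of 369 bases, and its copy AT2G07706, which spans 3381463 to 3386102 of chromosome 2. The copy was at 6038 and 9680 RPM in the day 7 GFP-only IP, where ORF122A itself was at 146 and 65.2.

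Features with and without an annotated 24 nt cosRNA had like 24 nt shares in the day 7 AGO9 IP. The 11 tested features that hold one had a median 24 nt share of 89.7%, and the 68 matched features without one 87.9%. In the day 7 inputs the medians were 33.3% and 42.7%.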

How the data were processed

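Small RNA from 16 immunoprecipitation and input libraries was analysed from 1 table of 65386 features. Its values are RPM per read size, deposited by the authors; per the submitters' processing notes, cutadapt 1.18, Bowtie2 2.3.5.1 and featureCounts of Subread 2.0.1 were used with build TAIR10. Strand, multiple-mapping and molecular identifier settings are not given in the sources used here. The deposited combined column of AGO5 replicate 1 at day 35 sums to 59698.5 and was treated as a score and not used; the 21 to 24 nt columns were summed instead. In all 16 libraries 100% of the values were whole multiples of 1 read (tolerance 0.01 reads), though in AGO9 replicate 2 at day 7 the step of 1 read is very small.

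Features averaging 1 RPM or more over the 16 libraries were compared on log2(RPM + 1), computed here from the deposited values, with limma 3.58.1 (R 4.3.3) in 1 fit of 8 groups, with an empirical Bayes trend. The pseudocount shrinks the differences of features with low values. Shares were compared with exact permutation tests. Intervals and floors (3 reads) cover counting error only. The alternatives were a pseudocount of 0.1 RPM, no filter, median centring, edgeR 4.0.16 on recovered counts from the deposited RPM, a replicate block and leaving out each library. Fits by read size, without the day 35 GFP-only pair and between ages were chosen after seeing the data.

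Names came from the RefSeq annotation (TAIR10.1): 139 features were matched by length, strand and spacing and 45 were named through notes on chromosome 2 copies, 39 of them both ways. The members and lists were chosen with earlier results of these data known. Named features were the 12 with the highest means, the 3 rRNA genes, up to 2 per direction and comparison (largest log2 difference among those called, with a mean of at least 10 RPM and libraries that did not overlap) and the highest of each class. ORF100B, rpl5, ccmB and ORF116 fall outside this rule and were named after their values were seen. Replicates of every group differed by more than sampling noise. The methods were tested on simulated data in which 200 of 17020 features differed 16-fold in the day 35 AGO9 IP. Against input, limma called 63.5% of the 200 and edgeR 51.0%, with 13 and 6 unchanged features called. A feature without a call can therefore still differ.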

Additional observations from a re-analysis of the deposited data

Results flagged for a closer look

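Differences between groups were compared between the ages, as the change at day 35 minus day 7 of a log2 difference, in a limma test chosen after seeing the data, with adjustment over all 17020 features. Age and tissue changed together. In this test 11 changes of named features passed. For the GFP-only IP minus input, the change was -2.67 for rrn26 (adjusted p = 0.0409), -8.81 for ORF315 (adjusted p = 0.0345) and 3.96 for ORF107G (adjusted p = 0.0488). For AGO5 minus the GFP-only IP, it was -2.86 for ccmFC (adjusted p = 0.0258), 2.63 for mttB (adjusted p = 0.0117) and 5.05 for nad4 (adjusted p = 0.0334). For AGO9 minus the GFP-only IP, it was -3.89 for ccmFC (adjusted p = 0.00452), 4.19 for nad4 (adjusted p = 0.0454), -3.17 for ORF107G (adjusted p = 0.0312) and -3.00 for rrn18 (adjusted p = 0.0219). For AGO5 minus AGO9, it was 2.82 for mttB (adjusted p = 0.0212). All but the last rest on the day 35 GFP-only pair, the shallowest libraries. There rrn26, ORF315 and mttB had no read in either library and nad4 none in replicate 1, so their fitted changes depend on the pseudocount and are no bound.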

How the results depend on the processing

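Counts of mitochondrial features called moved with most settings. Among these settings, the share of all features called was computed only for the fits by read size. The other counts here, and those with 1 library left out, have no background. With a pseudocount of 0.1 RPM, day 7 counts were 4 for AGO5 minus input, 6 for AGO9 minus input, 8 and 18 for AGO5 and AGO9 minus GFP-only and 0 for AGO5 minus AGO9, day 35 counts were 41 for GFP-only minus input and 30 for AGO9 minus GFP-only, and the inputs between ages gave 1. Without the filter on low values, 156 mitochondrial features were tested in place of 87, so those counts are of a larger set. Day 7 counts were then 30 for AGO9 minus input, 51 for AGO9 minus GFP-only and 7 for AGO5 minus AGO9. AGO5 minus AGO9 at day 35 gave 6. With median centring, day 7 counts were 0, 4 and 0 for AGO5, AGO9 and GFP-only minus input, 0 and 10 for AGO5 and AGO9 minus GFP-only and 1 for AGO5 minus AGO9. At day 35 they were 2, 4 and 13 against input and 7 for AGO5 minus GFP-only, and the inputs between ages gave 0. With edgeR on recovered reads, day 7 counts were 6, 2 and 0 against input, 2 and 10 for AGO5 and AGO9 minus GFP-only and 1 for AGO5 minus AGO9. At day 35 edgeR gave 6 and 3 for AGO5 and AGO9 minus input, and the inputs between ages 1. With 24 nt reads only, day 7 counts were 56 and 16 for AGO9 and GFP-only minus input, against 45.7% and 40.9% of all features. AGO5 and AGO9 minus GFP-only gave 38 and 58, against 37.4% and 75.5%, and AGO5 minus AGO9 gave 15, against 40.0%. At day 35 the counts were 6 for AGO5 minus input, against 33.1%, and 5 for AGO5 minus AGO9, against 37.7%. With 21 to 23 nt reads only, day 7 counts were 9 and 4 for AGO9 and GFP-only minus input, against 10.5% and 2.27%. AGO5 and AGO9 minus GFP-only gave 4 and 0, against 2.19% and 0.0%, and AGO5 minus AGO9 gave 13, against 10.2%. At day 35 the counts were 11 for GFP-only minus input, against 26.1%. AGO5 and AGO9 minus GFP-only gave 10 and 8 there, against 17.8% and 13.6%. Without the day 35 GFP-only pair in the fit, day 7 counts were 31, 39 and 18 against input and 39 for AGO5 minus GFP-only, day 35 counts were 21 and 16 for AGO5 and AGO9 minus input and 18 for AGO5 minus AGO9, and the inputs between ages gave 12. The cause was not tested.

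Leaving out 1 library at a time, day 7 counts ran from 0 to 23, 0 to 9 and 0 to 8 for AGO5, AGO9 and GFP-only minus input, from 2 to 25 and 15 to 29 for AGO5 and AGO9 minus GFP-only, and were 0 throughout for AGO5 minus AGO9. At day 35 they ran from 3 to 10, 3 to 9 and 7 to 30 against input, from 18 to 36 and 11 to 24 against GFP-only, and from 3 to 9 for AGO5 minus AGO9. The inputs between ages gave 0 to 2. The difference in mitochondrial share from input ran from -0.116 to -0.0562 percentage points for AGO5, -0.149 to -0.101 for AGO9 and 0.00344 to 0.380 for GFP-only at day 7, and from -0.0147 (without AGO5 replicate 2, the opposite direction) to 0.0564, -0.0781 to -0.0331 and 0.0499 to 0.198 at day 35. The difference in 24 nt share ran from 8.90 to 25.2, 31.6 to 57.6 and 2.222 to 2.63 percentage points at day 7, and from 2.33 to 6.54, 9.27 to 59.2 and -1.60 to 2.10 at day 35, where the last turned negative without GFP-only replicate 2 (-1.16) or input replicate 1 (-1.60). With an unweighted mean over features, the 24 nt difference was -11.6 for GFP-only at day 7, -6.53 for AGO5 at day 35 and -12.2 for GFP-only at day 35, each reversed.

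Of 76 calls on named features, 10 held under all alternatives. Under median centring 5 changed sign: cob, mttB and nad2 part 2 in GFP-only minus input at day 35, and rrn26 in both Argonaute IPs minus GFP-only at day 35. The labels do not say that replicate numbers pair libraries. Same-numbered deviations correlated at 0.507 for AGO5 and AGO9 at day 7, so these libraries moved together by number, and between -0.0117 and 0.0941 elsewhere. The cause was not tested. With the replicate block, AGO9 minus input at day 7 gave 18 calls, AGO5 minus input 18 and AGO5 minus AGO9 2, as many as without it in the last, and all 13 counts stayed within 1.5 times. The block was 1 term shared by all libraries. It could not take up a shift confined to the AGO5 and AGO9 libraries of day 7, so it does not show whether that shift matters. With 2 libraries a group, shares could not reach an exact p under 0.333. The day 35 GFP-only libraries were too shallow to measure most members.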
